A study of Mus musculus with 8 samples.

Results

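Fc gamma receptors are the surface proteins by which leukocytes bind the constant part of IgG antibodies. The 5 mouse genes described here are Fcgr1 (CD64), Fcgr2b (CD32), Fcgr3 (CD16), Fcgr4 and Fcer1g, which encodes the FcR gamma chain. They were chosen by name, because an antibody against CD16/32 was the sort gate of the experiment. Each of the 5 genes had 1 probe set on the array, out of 35557 probe sets in all, of which 23410 carry a gene symbol. The question asked of them was which receptor transcript differs between the cells sorted as CD16/32HI and CD16/32LO, and which differs with loss of IL-15.

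All mice were TAX-LUC mice, which carry the Tax oncogene of HTLV-1 under the human granzyme B promoter together with luciferase under the viral long terminal repeat, on a mixed C57BL/6 and FVB background. Cells of tail tumors from 2 IL-15-/- and 2 IL-15+/+ mice were blocked with an unlabelled anti-CD16/32 antibody, stained with anti-CD16/32 and sorted. The 8 arrays therefore form the groups CD16/32HI IL-15-/-, CD16/32HI IL-15+/+, CD16/32LO IL-15-/- and CD16/32LO IL-15+/+, with 2 arrays each. Mice numbered replicate 1 were aged 14 months and those numbered replicate 2 were aged 12 months. The submitters' labels describe the CD16/32HI cells as malignant large granular lymphocytes and the CD16/32LO cells as infiltrating cells. All values are log2 signals, so that a difference of 1 is a doubling, and the small number of arrays limits the precision. The p-values rest on these mice only, with the spread of each gene moderated by limma toward that of all probe sets tested. The comparisons of genotypes treated the 2 arrays of a mouse as independent.

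The receptors fall into an activating and an inhibitory arm. Fcgr1 encodes the high-affinity receptor for IgG, and Fcgr3 and Fcgr4 encode activating receptors of lower affinity. These 3 need the FcR gamma chain encoded by Fcer1g, whose ITAM motif recruits the kinase Syk. Fcgr2b encodes the inhibitory receptor, which carries an ITIM motif and recruits lipid phosphatases such as SHIP, the product of Inpp5d. In mice, macrophages can carry all of these receptors, neutrophils carry chiefly Fcgr3 and Fcgr4, NK cells carry Fcgr3, and Fcgr2b is the Fc gamma receptor of B cells. Fcgr2b and Fcgr3 proteins are so alike in their extracellular part that the usual CD16/32 antibodies bind both. The sequences of the array probes were not analysed here, so whether a probe set of one also hybridizes to the other was not tested.

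Fcgr2b, Fcgr4, Fcgr3 and Fcer1g lie on chromosome 1 and Fcgr1 lies on chromosome 3. The 80 bases before each annotated start are shown because the RNAs of Fcgr1 and Fcgr2b were found to vary together across the arrays. Those of Fcgr3 varied with them less closely, and those of Fcgr4 and Fcer1g varied weakly in the opposite direction. Sequences and positions are those of RefSeq on GRCm38.p6, written 5′ to 3′ on the strand of the gene. Capitals mark TTCCTC, the other strand of GAGGAA, a core site of the myeloid transcription factor PU.1.
Fcgr1: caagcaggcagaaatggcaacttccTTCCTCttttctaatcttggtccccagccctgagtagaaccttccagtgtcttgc
Fcgr2b: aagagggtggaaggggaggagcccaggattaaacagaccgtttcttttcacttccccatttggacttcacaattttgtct
Fcgr3: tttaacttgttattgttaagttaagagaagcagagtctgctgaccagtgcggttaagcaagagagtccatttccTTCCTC
Fcgr4: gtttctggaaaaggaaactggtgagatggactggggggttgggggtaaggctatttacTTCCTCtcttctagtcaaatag
Fcer1g: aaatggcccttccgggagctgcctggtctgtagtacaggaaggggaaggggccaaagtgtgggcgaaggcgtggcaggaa

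The windows are chr3:96293970-96294049 on the minus strand for Fcgr1, chr1:170976072-170976151 on the minus strand for Fcgr2b, chr1:171059404-171059483 on the minus strand for Fcgr3, chr1:171018846-171018925 on the plus strand for Fcgr4 and chr1:171234350-171234429 on the minus strand for Fcer1g. RefSeq lists 2 starts for Fcgr3, and the first of them was used. In the 250 bases before the start, GAGGAA or TTCCTC was found in Fcgr1, at 55 to 50 bases before the start, in Fcgr4, at 22 to 17 bases, and in Fcgr3, in the last 6 bases. It was not found in Fcgr2b or Fcer1g. Of 32851 promoters, 23.3% hold it in a window of this length. A match of letters is a description of the sequence and does not show that a factor binds there. TTCCTC was present in Fcgr1 and absent from Fcgr2b, whose RNAs varied together. It was also present in Fcgr3 and Fcgr4, whose RNAs varied with them less closely or in the opposite direction.

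In markers of macrophages and neutrophils, both populations of the replicate 1 IL-15-/- mouse stood apart from those of the other 3 mice. C1qa, a complement gene of macrophages, was at 7.68 and 11.43 in CD16/32HI IL-15-/- cells of replicates 1 and 2 and at 10.65 and 10.10 in CD16/32HI IL-15+/+ cells. It was at 10.73 and 8.16 in CD16/32LO IL-15-/- cells and at 8.06 and 7.94 in CD16/32LO IL-15+/+ cells. Csf3r, the G-CSF receptor of neutrophils, was at 10.74 on the CD16/32HI array of this mouse and at 7.15, 7.46 and 7.38 on the other CD16/32HI arrays, against 7.32 on its CD16/32LO array and 10.41, 10.37 and 10.42 on the other CD16/32LO arrays. Both genes thus ran the other way in this mouse. The labels were kept as deposited, and each comparison of the populations is given with this mouse and without it. Since this mouse was left out for values of these arrays, the calls from the 3 other mice are not independent support for the direction they show. A fit of the IL-15+/+ mice alone, which selects mice by their label, is given beside them. It was chosen after the data were seen and uses 2 of the same 3 mice, so it is not independent support either. The markers of the labelled cell type had a mean below the array's median on each CD16/32HI array. The mean of 11 markers of NK cells and large granular lymphocytes was 4.82 and 4.81 in CD16/32HI IL-15-/- cells, 5.56 and 5.35 in CD16/32HI IL-15+/+ cells, 4.85 and 5.08 in CD16/32LO IL-15-/- cells and 6.87 and 6.85 in CD16/32LO IL-15+/+ cells. Of the 11, 2 to 5 were above the array's median on the CD16/32HI arrays and 2 to 9 on the CD16/32LO arrays. In the 3 mice 5 of the 11 were called lower in CD16/32HI cells, against 7.33% of all probe sets, and 0 higher, against 6.36%. All 11 differences were negative, and with all 4 mice 0 probe sets were called. These markers were thus not higher in the cells labelled large granular lymphocytes. The CD16/32LO arrays with the higher means were those of IL-15+/+ mice, and the identity of the CD16/32HI cells was not tested. Between genotypes in CD16/32LO cells, 2 of the 11, Xcl1 (-2.65, adjusted p = 0.0104 from limma) and Gzma (-3.61, adjusted p = 0.0358), were called lower in IL-15-/- mice, as was 1 of 7 T cell markers, Cd8b1 (-2.45, adjusted p = 0.0193). Of all probe sets, 0.0342% were called in this comparison. It includes the CD16/32LO array of the mouse that ran the other way, and sex and genotype cannot be told apart.

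Fcgr2b, the inhibitory receptor, had higher RNA in the CD16/32HI population of 3 of 4 mice. Its signals were 9.13 and 10.82 in CD16/32HI IL-15-/- cells, 10.98 and 10.38 in CD16/32HI IL-15+/+ cells, 10.97 and 8.87 in CD16/32LO IL-15-/- cells and 9.31 and 9.18 in CD16/32LO IL-15+/+ cells, for replicates 1 and 2 in each pair. Without the replicate 1 IL-15-/- mouse, the 3 CD16/32HI arrays all lay above the 3 CD16/32LO arrays. The difference within the mouse was -1.84 and 1.95 in the IL-15-/- mice and 1.66 and 1.2 in the IL-15+/+ mice. With all 4 mice it averaged 0.74 (SE 0.65, adjusted p = 0.923 from limma with mouse as a block). With the 3 mice it averaged 1.61 (SE 0.17, 95% interval 1.22 to 1.99, adjusted p = 0.000476), a 3.04-fold difference, and in the IL-15+/+ mice alone 1.43 (SE 0.198, adjusted p = 0.00312).

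Fcgr1, the high-affinity receptor, which the CD16/32 antibody is not raised against, had a larger difference than Fcgr2b in each of the 3 mice in which it was higher in CD16/32HI cells. Its signals were 6.78 and 10.01 in CD16/32HI IL-15-/- cells, 9.60 and 9.19 in CD16/32HI IL-15+/+ cells, 9.51 and 7.44 in CD16/32LO IL-15-/- cells and 7.09 and 7.76 in CD16/32LO IL-15+/+ cells. Again the 3 CD16/32HI arrays lay above the 3 CD16/32LO arrays once the replicate 1 IL-15-/- mouse was set aside, and in that mouse the order was turned. The differences within the mouse were -2.73 and 2.57 in the IL-15-/- mice and 2.51 and 1.42 in the IL-15+/+ mice. They averaged 0.94 over 4 mice (SE 0.924, adjusted p = 0.923 from limma), 2.17 over 3 mice (SE 0.223, 95% interval 1.66 to 2.67, adjusted p = 0.000398), which is 4.49-fold, and 1.97 in the IL-15+/+ mice alone (SE 0.259, adjusted p = 0.00251).

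Fcgr3, which encodes CD16 itself, did not differ detectably between the populations. Its signals were 10.86 and 11.37 in CD16/32HI IL-15-/- cells, 10.97 and 10.59 in CD16/32HI IL-15+/+ cells, 11.07 and 11.14 in CD16/32LO IL-15-/- cells and 10.64 and 10.93 in CD16/32LO IL-15+/+ cells. The populations overlapped with or without the replicate 1 IL-15-/- mouse, and the difference was positive in 2 of 4 mice, at -0.21 and 0.23 in the IL-15-/- mice and 0.33 and -0.34 in the IL-15+/+ mice. It averaged 0.00 over 4 mice (SE 0.157, 95% interval -0.39 to 0.39, adjusted p = 0.996 from limma). Over 3 mice it averaged 0.07 (95% interval -0.31 to 0.45, adjusted p = 0.836). In the IL-15+/+ mice alone the interval ran from -0.49 to 0.49. The intervals leave room for differences of that size in either direction.

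Fcgr4, the activating receptor of mouse monocytes and neutrophils, was at 9.18 and 9.12 in CD16/32HI IL-15-/- cells, 9.39 and 8.32 in CD16/32HI IL-15+/+ cells, 8.76 and 9.78 in CD16/32LO IL-15-/- cells and 9.05 and 8.95 in CD16/32LO IL-15+/+ cells. The differences within the mouse went with the replicate number, at 0.42 and 0.34 in the IL-15-/- and IL-15+/+ mice of replicate 1 and at -0.66 and -0.63 in those of replicate 2. Their mean was -0.13 over 4 mice (SE 0.24, adjusted p = 0.926 from limma) and -0.32 over 3 mice (95% interval -0.78 to 0.15, adjusted p = 0.393). The IL-15-/- mouse of replicate 1 is the one that ran opposite to the others in cell type markers, and without it replicate 1 holds 1 mouse. Age and normalization set differ between the replicates too, and which of them moves with Fcgr4 cannot be told apart.

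Fcer1g, the signaling chain of the activating receptors, was at 11.97 and 11.89 in CD16/32HI IL-15-/- cells, 11.85 and 10.92 in CD16/32HI IL-15+/+ cells, 11.69 and 12.13 in CD16/32LO IL-15-/- cells and 11.70 and 11.46 in CD16/32LO IL-15+/+ cells. Its lowest value was the CD16/32HI array of the replicate 2 IL-15+/+ mouse, and the other 7 arrays lay between 11.46 and 12.13. Between the populations it differed by 0.27 and -0.23 in the IL-15-/- mice and by 0.15 and -0.54 in the IL-15+/+ mice, with the same signs by replicate as Fcgr4. The mean was -0.09 over 4 mice (SE 0.169, adjusted p = 0.926 from limma) and -0.21 over 3 mice (95% interval -0.58 to 0.17, adjusted p = 0.486).

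**Figure D1:**
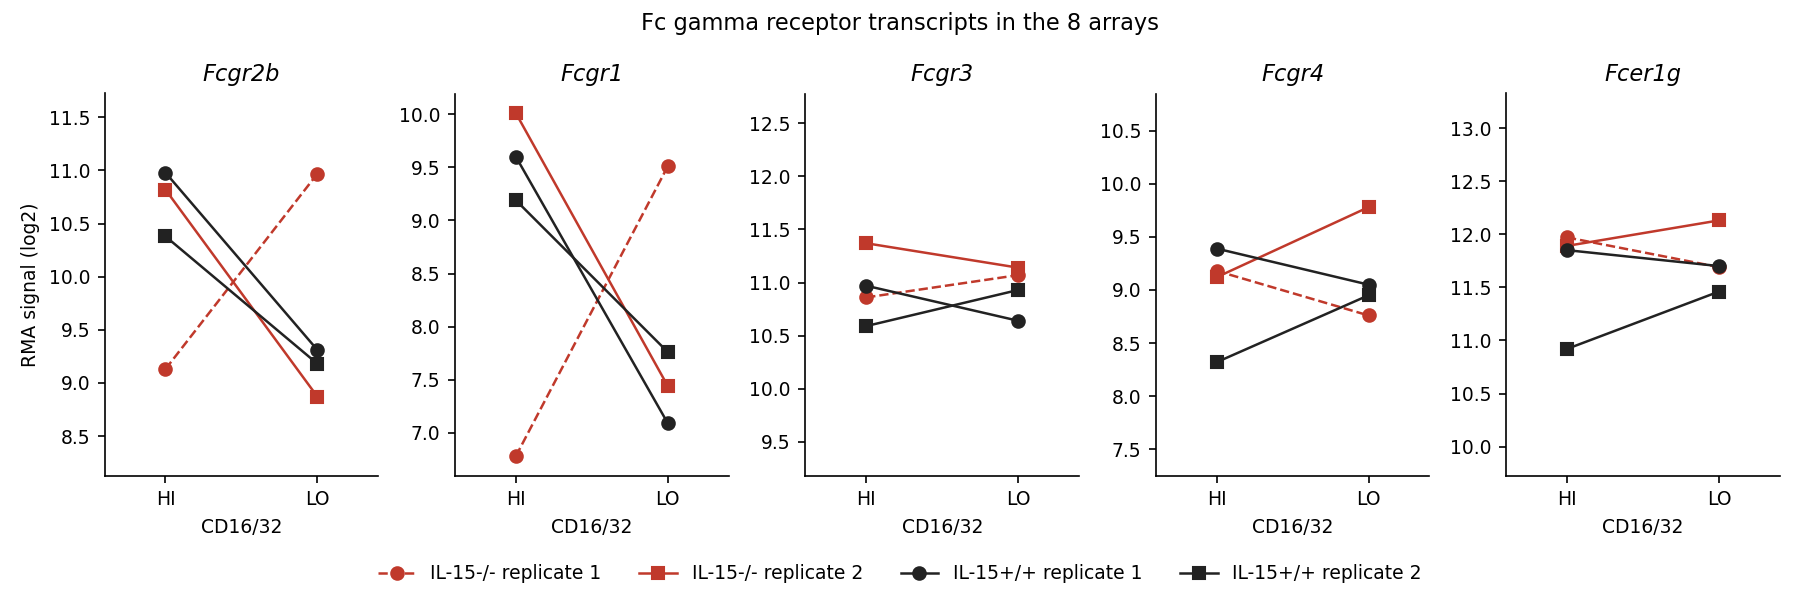
RMA signal (log2, vertical axes of equal span) of the 5 genes in CD16/32HI (left) and CD16/32LO (right) cells, with a line for each mouse, red for IL-15-/-, black for IL-15+/+, circles for replicate 1 and squares for replicate 2. For Fcgr2b and Fcgr1 the 3 solid lines fall from left to right and the dashed line of the replicate 1 IL-15-/- mouse rises, while for Fcgr3, Fcgr4 and Fcer1g the lines cross within about 1 log2 unit.

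With the labels of all 4 mice, 0 of the 5 genes were called between the populations, as were 0% of all probe sets tested (276 of them had an unadjusted p under 0.05 in limma). In 0 of the 5 did the 4 CD16/32HI arrays all lie above the 4 CD16/32LO arrays, against 0.427% of all probe sets. With 3 mice, 2 of the 5 were called, where 13.7% of all probe sets were. Both were higher in CD16/32HI cells, as were 6.36% of probe sets, and none was lower, as were 7.33%. The same 2 were the members whose 3 CD16/32HI arrays all lay above the 3 CD16/32LO arrays, which held for 11.0% of probe sets. In the IL-15+/+ mice alone the same 2 of 5 were called, against 8.53% of probe sets. Fcgr1 and Fcgr2b ranked 303 and 324 by p among the 23410 probe sets with 3 mice, and Fcgr4, Fcer1g and Fcgr3 ranked 9655, 11444 and 18661. The calls of Fcgr1 and Fcgr2b were also made in each pair of the 3 mice, with mean differences of 1.97 to 2.54 for Fcgr1 and 1.43 to 1.81 for Fcgr2b. These pairs are drawn from the same 3 mice, which were kept for values of these arrays, so they are not independent support.

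The genes were also set against each other within the mouse, as a difference of their differences, in 10 pairs. Fcgr2b exceeded Fcgr3 in its difference between the populations by 1.33 to 1.72 in the 3 mice (mean 1.53 ± 0.20, SD, n = 3), and in the replicate 1 IL-15-/- mouse it fell short of it, at -1.63. Fcgr1 exceeded Fcgr3 by 1.76 to 2.34 in the 3 mice and was at -2.52 in that mouse. Fcgr1 exceeded Fcgr2b by 0.22 to 0.85 in the 3 mice. In the remaining mouse Fcgr1 minus Fcgr2b was -0.89, so that the gene with the larger difference ran further in whichever direction the mouse went. An exact sign-flip test over 3 mice cannot give a two-sided p below 0.25 and over 4 mice none below 0.125, and no pair could therefore pass. For Fcgr2b minus Fcgr3 it gave 0.25 with 3 mice and 0.5 with 4.

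**Figure D2:**
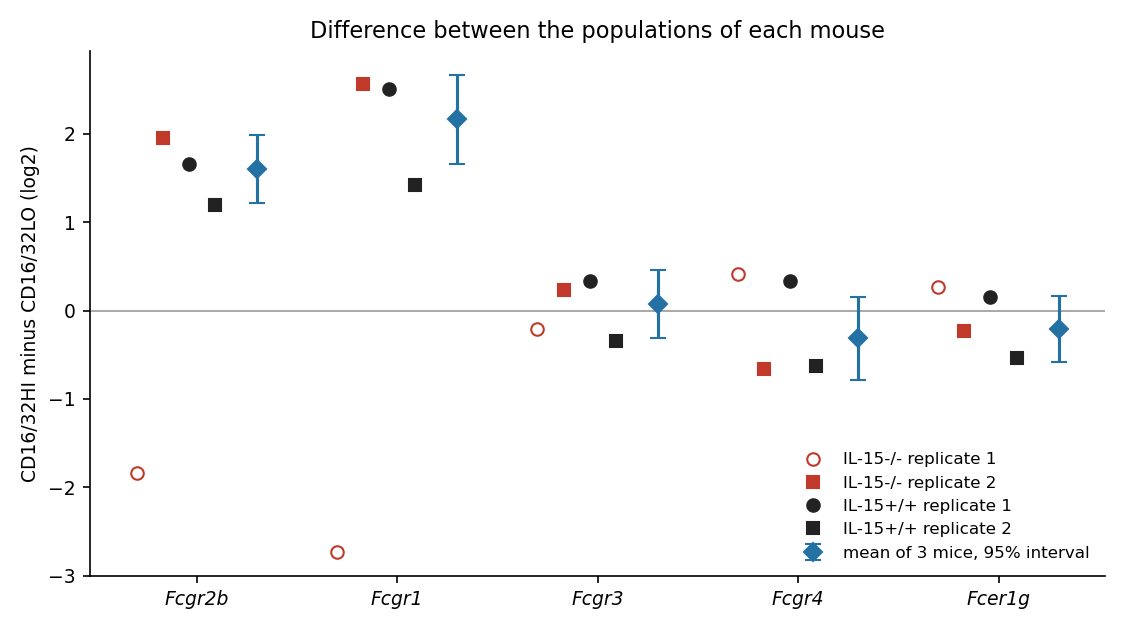
Difference between CD16/32HI and CD16/32LO cells of each mouse (log2, vertical axis) for the 5 genes, with red symbols for IL-15-/- mice, black for IL-15+/+ mice, circles for replicate 1, squares for replicate 2 and an open circle for the replicate 1 IL-15-/- mouse. Blue diamonds are the mean of the other 3 mice from limma with its 95% interval, which lies above 0 for Fcgr2b (1.22 to 1.99) and Fcgr1 (1.66 to 2.67) and spans 0 for the other 3.

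Between genotypes, 0 of the 5 genes were called in CD16/32HI cells, against 0.0214% of probe sets, and 0 of 5 in CD16/32LO cells, against 0.0342%. None of the 5 had an unadjusted p under 0.05 in either. In CD16/32HI cells the log2 differences of IL-15-/- from IL-15+/+ were -0.70 for Fcgr2b, -1.0 for Fcgr1, 0.33 for Fcgr3, 0.29 for Fcgr4 and 0.54 for Fcer1g (adjusted p = 0.848 to 0.926 from limma). In CD16/32LO cells they were 0.67, 1.05, 0.32, 0.27 and 0.33 in the same order (adjusted p = 1). For Fcgr2b and Fcgr1 these means rested on the mouse that ran opposite to the others. Within replicate 1 the difference of Fcgr1 was -2.82 in CD16/32HI and 2.42 in CD16/32LO cells, and within replicate 2 it was 0.82 and -0.32. Fcgr2b gave -1.85 and 1.65 in replicate 1 and 0.44 and -0.31 in replicate 2. With the replicate 1 IL-15-/- mouse left out the CD16/32HI differences were 0.14 for Fcgr2b and 0.62 for Fcgr1 and the CD16/32LO differences -0.38 and 0.01, none of them called.

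The genotypes did not overlap for 1 of the 5 genes in CD16/32HI cells, against 34.4% of probe sets, and for 1 of 5 in CD16/32LO cells, against 28.6%, shares that are no larger than those of all probe sets. Fcgr3 was higher in CD16/32LO cells of both IL-15-/- mice (11.07 and 11.14) than of both IL-15+/+ mice (10.64 and 10.93), and it overlapped in CD16/32HI cells. Fcer1g was higher in CD16/32HI cells of both IL-15-/- mice (11.97 and 11.89) than of both IL-15+/+ mice (11.85 and 10.92), and it overlapped in CD16/32LO cells. The 2 IL-15+/+ arrays of replicate 2 also had the lowest medians of all probe sets, at 5.62 and 5.65, against 5.86 to 5.93 on the other 6 arrays. Within replicate 1, where all 4 arrays share a normalization set, Fcer1g differed by 0.12 in CD16/32HI and by -0.01 in CD16/32LO cells, and Fcgr3 by -0.11 and 0.43. Within replicate 2 Fcer1g differed by 0.97 and 0.66 and Fcgr3 by 0.78 and 0.21, and there genotype and normalization set cannot be told apart. The part of scaling in these differences was not tested beyond quantile normalization, normalization set as a block and centring each array on its median. Centring gave 0.41 and 0.21 for Fcer1g and 0.20 and 0.20 for Fcgr3 in CD16/32HI and CD16/32LO cells. So centred, Fcgr3 overlapped in CD16/32LO cells as well (5.17 and 5.21 above the array's median in IL-15-/- and 4.71 and 5.27 in IL-15+/+ mice). The IL-15-/- mice were also of the other sex than the IL-15+/+ mice by the level of Xist (at least 10.08, against at most 4.64), so that sex and genotype cannot be told apart.

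The genotype difference itself did not differ detectably between the populations for any of the 5 genes. The difference of the genotype differences, CD16/32HI minus CD16/32LO, was -1.38 for Fcgr2b, -2.05 for Fcgr1, 0.01 for Fcgr3, 0.02 for Fcgr4 and 0.21 for Fcer1g. The call rate of this test was 0% over all probe sets (639 had an unadjusted p under 0.05 in limma), and 0 of the 5 members had one. Without the replicate 1 IL-15-/- mouse the values were 0.52, 0.60, 0.23, -0.51 and -0.04 in the same order, and none was called.

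The group means of Fcgr2b were 9.97 ± 1.2 in CD16/32HI IL-15-/-, 10.68 ± 0.42 in CD16/32HI IL-15+/+, 9.92 ± 1.48 in CD16/32LO IL-15-/- and 9.25 ± 0.10 in CD16/32LO IL-15+/+ cells (SD, n = 2 each). Those of Fcgr1 were 8.39 ± 2.28, 9.39 ± 0.29, 8.47 ± 1.46 and 7.43 ± 0.48 in the same order of groups. CD16/32HI IL-15+/+ was thus the highest and CD16/32LO IL-15+/+ the lowest group for both genes, with the IL-15-/- groups between them. In both genes the IL-15-/- groups overlapped every neighbour in the order, since each held 1 high and 1 low array, and the CD16/32HI and CD16/32LO groups of IL-15+/+ mice at the ends of the order did not overlap. The 4 means of Fcgr3 lay between 10.78 and 11.11, those of Fcgr4 between 8.86 and 9.27 and those of Fcer1g between 11.39 and 11.93. Within each of these 3 genes the means of CD16/32HI and CD16/32LO cells of a genotype differed by less than the larger SD of the pair.

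Across the 8 arrays Fcgr1 and Fcgr2b varied together (Pearson r = 0.946 over 8 arrays, given as a description, since the arrays share mice and normalization sets). Fcgr4 varied with Fcer1g (r = 0.892), and Fcgr3 varied less closely with Fcer1g (r = 0.641) and Fcgr4 (r = 0.515). Fcgr1, whose protein needs the FcR gamma chain, had r = -0.246 with Fcer1g, and Fcgr2b, whose protein does not, had -0.218. Fcgr3 was at r = 0.266 with Fcgr2b, the other receptor that the sort antibody binds, and at 0.405 with Fcgr1.

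The genes of most similar pattern to each member were picked by Pearson r over the same 8 arrays, among 10523 genes above the median signal. Their differences between the populations therefore follow those of the member by selection and are given as a description. For Fcgr2b they were Shcbp1 (r = 0.997), an SHC-binding protein of dividing cells, Prdx4 (0.993), a peroxiredoxin of the endoplasmic reticulum, Slamf8 (0.993), a SLAM family receptor of myeloid cells, Sdf2l1 (0.991), an endoplasmic reticulum chaperone component, and Cds1 (0.991), an enzyme of phospholipid synthesis. The mean difference of these 5 between the populations in 3 mice ran from 0.69 for Sdf2l1 to 2.25 for Prdx4, and in the replicate 1 IL-15-/- mouse all 5 were negative. For Fcgr1 they were Ifi207 (0.995), an interferon-activated gene, the mitotic kinesin Kif15 (0.994), the cytochrome oxidase subunit Cox6b2 (0.994), the actin nucleator Spire1 (0.993) and the tubulin Tubb2a (0.992), with mean differences of 1.31 to 2.11.

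For Fcgr3 the most similar genes were Rabl6 (0.982), Hnrnpl (0.974), an RNA-binding protein, Havcr2 (0.964), which encodes the checkpoint receptor TIM-3, Dsn1 (0.962), a kinetochore protein, and Commd2 (0.959). Their mean differences between the populations in 3 mice lay between 0.04 and 0.27, and with each array centred on its median the r of Hnrnpl was 0.703. For Fcgr4 they were Plekhj1 (0.969), 4930445K14Rik (0.964), the histone methyltransferase Kmt2d (0.963), the translation regulator Gcn1 (0.946) and the securin Pttg1 (0.945). For Fcer1g they were Rac1 (0.977), a small GTPase, Cox19 (0.977), Tpgs2 (0.976), Slfnl1 (0.974) and Eif4a3 (0.974), a protein of the exon junction complex. For Fcgr4 and Fcer1g these 10 genes had mean differences of -0.54 to -0.08.

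Marker transcripts of several cell types moved with Fcgr2b and Fcgr1, those of macrophages in the same direction and those of neutrophils and others in the opposite one. The mean of 10 macrophage markers was 7.99 and 10.33 in CD16/32HI IL-15-/- cells, 10.06 and 9.73 in CD16/32HI IL-15+/+ cells, 10.11 and 8.21 in CD16/32LO IL-15-/- cells and 8.29 and 8.03 in CD16/32LO IL-15+/+ cells, and 9 of the 10 were above the array's median on every array. The 4 arrays with the high marker mean were those with the high Fcgr2b and Fcgr1 signals, with CD16/32LO cells of the replicate 1 IL-15-/- mouse among them. Over the 8 arrays the marker mean had r = 0.978 with Fcgr2b and 0.971 with Fcgr1, 0.338 with Fcgr3, -0.325 with Fcgr4 and -0.198 with Fcer1g. The summed macrophage marker level was 97.3 to 103.3 on the CD16/32HI arrays of the 3 mice, against 80.3 to 82.9 on their CD16/32LO arrays. In these mice 8 of the 10 markers were called higher, against 6.36% of all probe sets, and with all 4 mice 0 probe sets were called. C1qa, for which the replicate 1 IL-15-/- mouse was set aside, is 1 of the 10, so this count is not independent support. Mrc1, the mannose receptor, was at 11.19 to 11.41 on the CD16/32HI arrays of the 3 mice, against 8.38 to 8.83 on their CD16/32LO arrays, and Adgre1, which encodes F4/80, lay between 9.35 and 9.91 on all 8 arrays.

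The mean of 8 neutrophil markers was 11.17 and 8.19 in CD16/32HI IL-15-/- cells, 8.53 and 8.34 in CD16/32HI IL-15+/+ cells, 8.70 and 10.78 in CD16/32LO IL-15-/- cells and 10.32 and 10.85 in CD16/32LO IL-15+/+ cells. It ran against Fcgr2b (r = -0.947 over the 8 arrays) and Fcgr1 (-0.953), and less closely with Fcgr4 (0.429), Fcer1g (0.354) and Fcgr3 (-0.190). Its summed level was 65.5 to 68.3 on the CD16/32HI arrays of the 3 mice, against 82.5 to 86.8 on their CD16/32LO arrays. In these mice 8 of the 8 markers were called lower, against 7.33% of all probe sets, and with all 4 mice 0 probe sets were called. Csf3r, for which the replicate 1 IL-15-/- mouse was set aside, is 1 of the 8, so this count is not independent support either. In sorted bulk samples a change in the share of a cell type cannot be told apart from a change of RNA per cell, and the part of any of these cell types in the differences of Fcgr2b and Fcgr1 was not tested. Eosinophil markers had r = -0.919 with Fcgr2b and -0.900 with Fcgr1, mast cell and basophil markers -0.801 and -0.888, and B cell markers -0.718 and -0.755. Of these, 3 of 4 eosinophil markers, 1 of 7 mast cell and basophil markers and 4 of 6 B cell markers were called lower in CD16/32HI cells of the 3 mice, and none was called higher. The markers of NK cells and large granular lymphocytes had r = -0.389 with both Fcgr2b and Fcgr1 and -0.507 with Fcgr3.

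**Figure D3:**
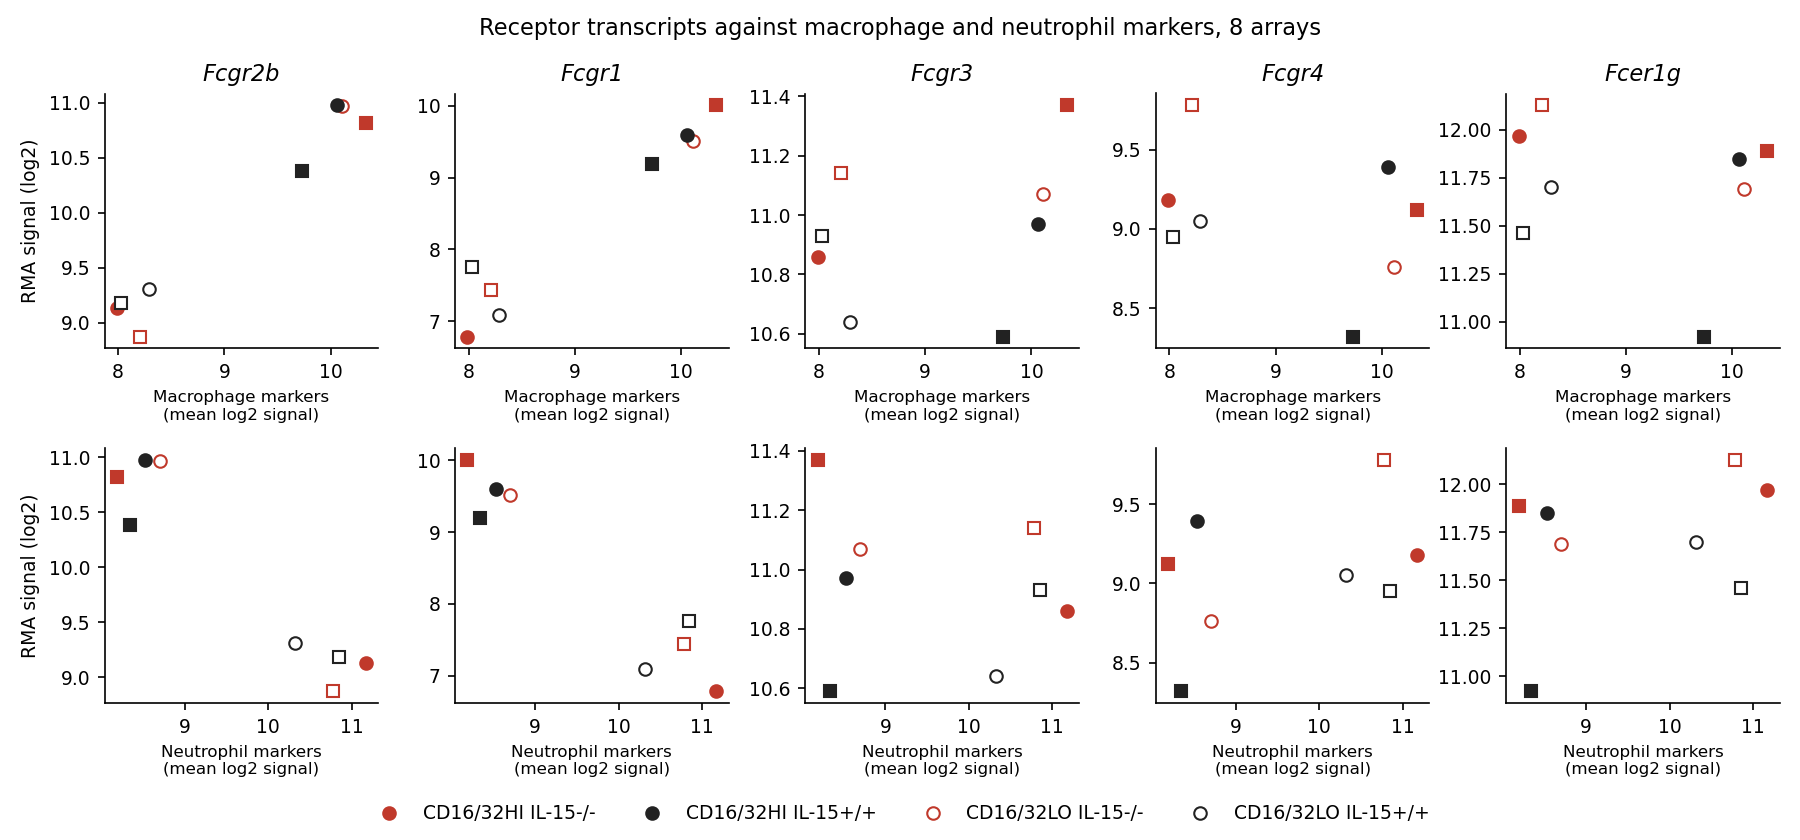
RMA signal (log2, each vertical axis with its own range) of the 5 genes against the mean log2 signal of 10 macrophage markers (top) and 8 neutrophil markers (bottom) on the 8 arrays, with filled symbols for CD16/32HI, open for CD16/32LO, red for IL-15-/-, black for IL-15+/+, circles for replicate 1 and squares for replicate 2. Fcgr2b and Fcgr1 lie in a high and a low cluster of 4 arrays along both axes, with the IL-15-/- arrays of replicate 1 each in the cluster of the other population, and Fcgr3, Fcgr4 and Fcer1g show no such clusters.

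Of the other genes of the Fc receptor family, 2 of 12 measured were called higher and 4 lower in CD16/32HI cells of the 3 mice, against 6.36% and 7.33% of all probe sets. Their median difference was -0.20, against 0.03 over all probe sets. Those of largest difference were Fcrls (2.07, adjusted p = 0.00125 from limma), a mouse Fc receptor-like gene of macrophages, Fcrl1 (-1.99, adjusted p = 0.000937), an Fc receptor-like protein of B cells, Fcmr (-1.15), the receptor for IgM, and Fcer2a (-1.02), the low-affinity receptor for IgE, known as CD23. Fcrls was 3.02 higher in CD16/32HI cells of the replicate 2 IL-15-/- mouse and 1.44 and 1.74 higher in those of the IL-15+/+ mice, and its difference was -2.19 in the replicate 1 IL-15-/- mouse. B cell markers moved with the lower ones. The summed level of 6 B cell markers was 32.4 to 34.5 on the CD16/32HI arrays of the 3 mice, against 37.6 to 42.5 on their CD16/32LO arrays, 4 of the 6 were called lower, and their part in the differences of Fcrl1, Fcmr and Fcer2a was not tested. Fcgrt was not analysed here.

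Of 21 kinases and adaptors of the activating pathway, 1 was called higher and 8 lower in CD16/32HI cells of the 3 mice (median -0.33). Of all probe sets, 6.36% were called higher and 7.33% lower in this fit. In the IL-15+/+ mice alone 1 was higher and 5 lower, where 8.53% of all probe sets were called in either direction. Syk, the kinase that binds the phosphorylated ITAM of the FcR gamma chain, had a difference of -1.49 (SE 0.137, adjusted p = 0.00024 from limma), and it was -1.39 in the replicate 2 IL-15-/- mouse, -1.54 and -1.52 in the IL-15+/+ mice and 1.5 in the replicate 1 IL-15-/- mouse. The Src family kinase Fgr (-1.51, adjusted p = 0.000317) and the leukocyte GTPase Rac2 (adjusted p = 0.000306) fell by as much. Lat2, a membrane adaptor of B cells and myeloid cells also known as NTAL, was the 1 that rose (1.37, adjusted p = 0.00242).

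The phosphatases and adaptors that act downstream of the inhibitory receptor did not move as 1 group. Inpp5d, which encodes SHIP, had a difference of -0.37 (SE 0.167, adjusted p = 0.196 from limma). Its relative Inppl1 (SHIP2) rose by 0.82 (adjusted p = 0.00529), while Ptpn6 (SHP-1) fell by 0.91 (adjusted p = 0.00342) and the Csk-binding adaptor Pag1 fell by 0.86 (adjusted p = 0.00606). Among 9 measured these were the 3 called, with a median of -0.38. Of 10 other genes listed with the inhibitory receptors of myeloid cells, 2 were called higher and 3 lower (median -0.38), against 6.36% and 7.33% of all probe sets. Siglece, a sialic acid receptor of neutrophils and macrophages, fell most (-2.35, adjusted p = 4.08e-05), at -2.44 in the replicate 2 IL-15-/- mouse and -2.14 and -2.46 in the IL-15+/+ mice, against 2.90 in the replicate 1 IL-15-/- mouse. Cd72 rose by 0.89 (adjusted p = 0.0159) and the collagen receptor Lair1 by 0.65 (adjusted p = 0.0203), and in the IL-15+/+ mice alone neither was called.

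Of 8 adaptors and receptors that signal with Fcer1g or beside it, 0 were called higher and 3 lower in CD16/32HI cells of the 3 mice (median -0.41). These were the C-type lectins Clec4e (Mincle; -1.96, adjusted p = 0.00028 from limma) and Clec4d (-1.43, adjusted p = 0.000668), which pair with the FcR gamma chain, and Hcst (-0.87, adjusted p = 0.00659), the adaptor DAP10. Tyrobp, which encodes the related adaptor DAP12, differed by -0.17 (adjusted p = 0.514), with -0.09 in the replicate 2 IL-15-/- mouse and -0.08 and -0.34 in the IL-15+/+ mice. The shares called in these lists are to be read against the 13.7% of all probe sets. With all 4 mice 0 genes of these 5 pathway lists were called between the populations, and 0 were called between the genotypes. Markers of several cell types were lower in CD16/32HI cells of the 3 mice together with the genes that fell, with 8 of 8 neutrophil, 5 of 7 T cell, 5 of 11 NK cell, 4 of 6 B cell, 3 of 4 eosinophil and 2 of 6 dendritic cell markers called lower and 1 T cell marker called higher. Their part in those differences was not tested.

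**Figure D4:**
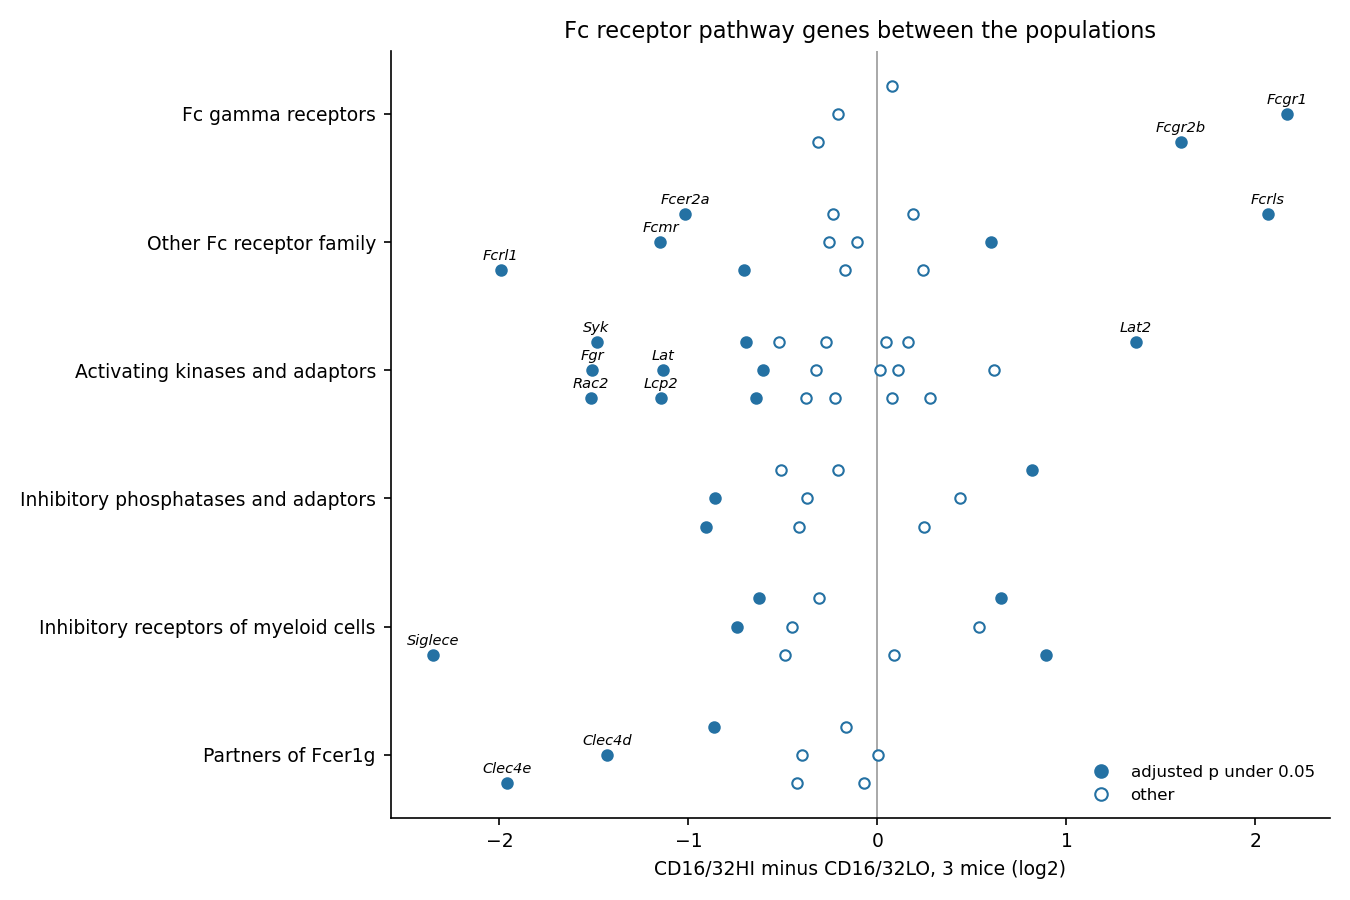
Mean difference between CD16/32HI and CD16/32LO cells of 3 mice (log2, horizontal axis) for each measured gene of the Fc receptor lists (rows), with filled circles for genes at an adjusted p under 0.05 and names for those that also differ by more than 1. Fcgr1, Fcgr2b, Fcrls and Lat2 are the named genes to the right of 0, and the other named genes, among them Syk, Siglece and Clec4e, lie to the left.

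Fcgr2b had the largest positive mean difference in the 3 mice among its measured neighbours on chromosome 1. In RefSeq's order of protein-coding genes Fcgr4 and Fcgr3 follow Fcgr2b directly, and Fcer1g lies 10 genes on. In the 3 mice the mean difference between the populations was 1.61 for Fcgr2b, -0.32 for Fcgr4 and 0.07 for Fcgr3. On the other side, Fcrla, an Fc receptor-like gene of B cells, and Fcrlb were at -0.70 and 0.60. Fcrlb was itself called higher with 3 mice (adjusted p = 0.0246 from limma). Fcrlb, Cfap126, Sdhc and Tomm40l had the same sign as Fcgr2b in each of the 4 mice, with smaller means. Between Fcgr3 and Fcer1g, the mean differences of Cfap126, Sdhc, Pcp4l1, Nr1i3, Tomm40l and Apoa2 lay between -0.35 and 0.71. B4galt3, a galactosyltransferase gene beyond Fcer1g, was at -1.55, with 1.68 in the replicate 1 IL-15-/- mouse.

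**Figure D5:**
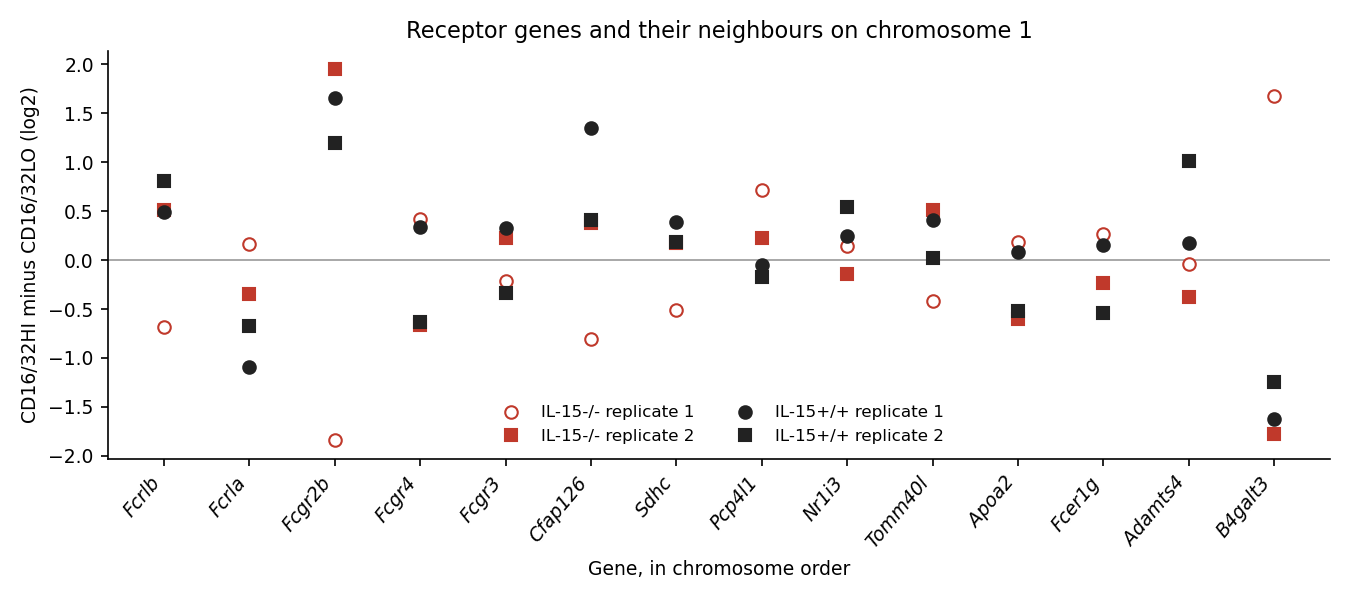
Difference between CD16/32HI and CD16/32LO cells of each mouse (log2, vertical axis) for the measured protein-coding genes around the receptor genes on chromosome 1, in chromosome order (horizontal axis, not to scale), with red for IL-15-/- mice, black for IL-15+/+ mice, circles for replicate 1, squares for replicate 2 and an open circle for the replicate 1 IL-15-/- mouse. Fcgr2b has its 3 filled symbols between 1.2 and 1.95, while those of the adjacent Fcgr4 and Fcgr3 lie on both sides of 0.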

How the data were processed

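RNA of sorted tail tumor cells was hybridized to Affymetrix Gene Chip Whole Transcript 1.0ST arrays. The file holds log2 signals of each probe set, as deposited, which the authors background-corrected, normalized and summarized by RMA in Affymetrix Expression Console, of a version not given in the sources used here. Gene symbols came from the platform annotation, in which 21789 probe sets had 1 symbol, 1621 several and 12147 none. Differences were tested with limma (version 3.58.1, R 4.3.3) on the 23410 probe sets with a symbol, with calls made below 0.05 after Benjamini-Hochberg adjustment. The populations were compared with mouse as a block, since both come from the same tumors. Deviations of the populations of a mouse from their group means correlated at 0.366 in IL-15+/+ and -0.454 in IL-15-/- mice. The genotypes were compared over 4 group means with 1 estimate of the spread. Exactly equal values (11 to 106 a pair within sets, 0 between) put the arrays into 3 normalization sets, replicate 1 and each genotype of replicate 2. The members are always named, with the 5 genes of highest Pearson r each and the 2 to 4 largest called differences of each list. Members and lists were chosen with earlier results of these data known. Procedures were tested on simulated data. Alternatives were another scaling, other probe set filters, other blocks and leaving out mice or arrays. No member had another probe set to try. A further promoter motif that was searched is not reported here.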

Additional observations from a re-analysis of the deposited data

How the results depend on the processing

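The calls between the populations turned on 1 mouse. With all 4 mice 0 probe sets and 0 of the 5 receptor genes were called under every scaling, filter and block tried, including the fit with no replicate block. Leaving out 1 mouse gave 0 to 3205 probe sets and 0 to 2 receptor genes, all of them without the replicate 1 IL-15-/- mouse. Chosen after the data were seen, the fit of IL-15+/+ mice gave 1996 probe sets and 2 receptor genes, the 3 mice centred on array medians 3220 and 2, and quantile normalized 3408 and 2. Without that mouse and either IL-15+/+ mouse it was 1797 to 3472 probe sets and 2 receptor genes. Fcgr3 was not called under any of these (-0.043 with quantile normalization, -0.0017 in IL-15+/+ mice, -0.11 to 0.28 with mice left out), nor were Fcgr4 (-0.64 to 0.043) and Fcer1g (-0.39 to 0.062).

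Between genotypes, the count in CD16/32HI cells was 3 above the median signal, 3 with a replicate block, 0 with normalization set as a block, 2 on 4 arrays alone, 8 with the replicate 1 IL-15-/- mouse left out and 2 to 4 with 1 array left out, against 5. In CD16/32LO cells it was 2 with normalization set as a block, 20 without that mouse and 3 to 11 with 1 array left out, against 8. With the replicate block none of the 5 receptor genes was called either, and the replicate number pairs no genotypes (correlation of deviations 0.056 and 0.137). Without that mouse Fcgr1 and Fcgr2b turned to 0.62 and 0.14 in CD16/32HI cells and Fcgr2b to -0.38 in CD16/32LO cells. Leaving out arrays gave -2.61 to 0.62 for Fcgr1, -1.55 to 0.14 for Fcgr2b and -0.24 to 0.83 for Fcgr4 in CD16/32HI cells, and -0.38 to 1.72 for Fcgr2b and -0.24 to 0.78 for Fcgr4 in CD16/32LO cells. With normalization set as a block Fcgr4 was -0.24 and -0.27 in the populations, and Fcer1g -0.050 in CD16/32LO cells.

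The difference of the genotype differences gave 0 to 2680 probe sets and 0 to 2 receptor genes with 1 mouse left out, the highest where the replicate 1 IL-15-/- mouse stood alone for its genotype. The members then ran from -4.69 to 0.60 (Fcgr1), -3.27 to 0.52 (Fcgr2b), -0.32 to 0.35 (Fcgr3), -0.51 to 0.56 (Fcgr4) and -0.13 to 0.56 (Fcer1g). Fcgr3 was -0.0027 with centring and Fcgr4 -0.10 with quantile normalization. The causes of these changes were not tested. With 2 mice a genotype and RNA only, agreement of transcript with surface protein was not measured.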
